A study of Mus musculus with 4 samples.

Results

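The cluster of miR-221 and miR-222 comprises 2 neighbouring microRNA hairpins, and the 3 mature miRNAs described here, miR-221-3p, miR-221-5p and miR-222-3p, were found by name among the 1078 mature miRNAs of the series. All 3 were present in every library. Small RNA was sequenced from 4 C57BL/6J mouse cell populations, with 1 library each, so no difference below has a replicate check or a test. The HSC library holds haematopoietic stem cells, which had been sorted out of bone marrow by c-Kit and Sca1 staining and the lack of lineage markers, with a stated purity above 95%. For the immature dendritic cells (imDC), bone marrow of mice aged 5 to 6 weeks was kept in GM-CSF (10 ng/mL) and IL-4 (1 ng/mL) over 6 days. The mature dendritic cells (maDC) came from such a culture to which LPS (10 ng/mL) was given from day 4, and were picked with CD11c beads on day 8. In the last library, regulatory dendritic cells (DCreg), which the design calls producers of IL-10 and nitric oxide, had been maDC before 7 days or more of co-culture with endothelial-like stromal cells of the spleen, and were also picked with CD11c beads. All 3 dendritic cell populations had thus been grown in GM-CSF and IL-4, and maDC and DCreg share the LPS treatment and the bead selection. How many animals went into each library is not stated.

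A miRNA hairpin is cut by Drosha and then Dicer into a short duplex, and usually 1 arm of it is kept in an Argonaute protein while the other is degraded. The bases 2 to 8 of the kept arm, the seed, choose its target mRNAs. miR-221-3p and miR-222-3p share a seed, are made from 1 primary transcript, and are known to repress the stem cell factor receptor Kit and the cell cycle inhibitor p27. The cluster is also known as a target of NF-kB and AP-1 signalling, and is well expressed in endothelial cells.

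In RefSeq (GRCm38.p6) Mir222 lies at chrX:19146893-19146971 and Mir221 at chrX:19146294-19146388, both on the minus strand, with 504 bases between them. Each is annotated as a miRNA gene of 1 exon, and in GENCODE no other annotated gene overlaps them. RefSeq holds a mature sequence for all 3 members. They are shown because the shared seed (in capitals) joins the 3p arms while the rest of the sequence tells them apart, and because miR-221-5p has another seed. The last line is miR-1928, from chromosome 1, which is the other RefSeq miRNA with the 3p seed.
miR-221-3p: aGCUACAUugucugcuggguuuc
miR-222-3p: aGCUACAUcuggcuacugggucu
miR-221-5p: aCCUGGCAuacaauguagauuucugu
miR-1928: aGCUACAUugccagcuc
The 3p arms share their first 8 bases, and 11 of 23 positions when set base by base without gaps. No other RefSeq mouse miRNA has the seed of miR-221-5p. The hairpins, with the RefSeq mature arms in capitals, show where the arms lie.
Mir221: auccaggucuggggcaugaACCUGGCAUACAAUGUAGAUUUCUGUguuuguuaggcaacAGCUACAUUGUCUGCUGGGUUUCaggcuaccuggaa
Mir222: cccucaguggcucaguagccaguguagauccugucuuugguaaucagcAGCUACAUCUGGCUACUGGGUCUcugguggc

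Levels are given in parts per 1000000 (ppm) of each library's deposited miRNA total, which was between 2725948 in DCreg and 5251069 in imDC. Beside them stand reads recounted from each library's deposited list of unique sequences, of which between 3932627 (DCreg) and 5523681 (maDC) matched a miRNA, in ppm of those matched reads. All intervals are exact 95% intervals unless stated, and cover counting error only. miRNAs known as markers of erythroid and lymphoid cells were high in the HSC library, although lineage positive cells had been gated out. The 4 erythroid miRNAs (both arms of miR-144, miR-451 and miR-486-5p) summed to 15231 ppm in HSC, against 19.4 in imDC, 1.56 in maDC and 2.20 in DCreg. The lymphoid miR-150-5p stood at 914 ppm in HSC and at 17.1 ppm or less in the dendritic cell libraries. The 2 arms of miR-126, listed here as endothelial, summed to 121 ppm in HSC and 8.00 in imDC. In maDC they came to 2.46 ppm and in DCreg to 1.47. Each arm stayed under 100 ppm in every library. In DCreg each was at or under the floor of 3 units of the deposited score. The 3 myeloid and blood-lineage miRNAs, miR-223-3p and both arms of miR-142, were all at 100 ppm or more in HSC, imDC and maDC, and 2 of them in DCreg, where miR-142-3p stood at 94.6 ppm. The 4 stem and progenitor miRNAs (miR-196b-5p, miR-10a-5p, miR-99a-5p and miR-125b-5p) summed to 2678 ppm in HSC and 608 in imDC, with 1045 in maDC and 2763 in DCreg, a sum carried mostly by miR-10a-5p, at 2193 ppm in HSC and 2042 in DCreg. The others differed between those libraries in both directions: in DCreg miR-196b-5p was at 12.5 ppm, against 251 in HSC, and miR-125b-5p at 363 ppm, against 58.0 in HSC.

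miR-221-3p, the main product of the cluster, was the most abundant member everywhere and highest in the cultured dendritic cells before the stromal step. Its level was 7093 ppm in HSC and 19677 in imDC, then 24002 in maDC and 10475 in DCreg. It ranked between 14 (maDC) and 26 (HSC) of all miRNAs. Recounted reads gave 3936 ppm in HSC (3882 to 3990) and 14283 in imDC (14181 to 14385), with 13440 in maDC (13343 to 13537) and 5779 in DCreg (5704 to 5854). The imDC and maDC libraries thus formed the upper pair and HSC and DCreg the lower pair by either measure, while the order of imDC and maDC turned with the measure.

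miR-222-3p, which carries the same seed, had its highest level in imDC and its lowest in DCreg. Its level was 2839 ppm in HSC and 9752 in imDC, then 7240 in maDC and 2106 in DCreg. Recounted reads gave 1631 ppm in HSC (1596 to 1666) and 7284 in imDC (7212 to 7358), with 4273 in maDC (4219 to 4328) and 1176 in DCreg (1142 to 1210). The order imDC, maDC, HSC, DCreg was the same in both measures, and no interval of recounted reads overlapped another.

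miR-221-5p, the passenger arm of Mir221, was far less abundant and had another order. Its level was 155 ppm in HSC and 165 in imDC, then 476 in maDC and 564 in DCreg. Recounted reads gave 88.9 ppm in HSC (81.0 to 97.4) and 128 in imDC (119 to 138), with 290 in maDC (276 to 305) and 320 in DCreg (302 to 338). DCreg was highest and HSC lowest in both measures, although the recounted intervals of DCreg and maDC overlapped slightly.

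Together the 3 members held 1.01% of the deposited values in HSC and 2.96% in imDC, then 3.17% in maDC and 1.31% in DCreg. Their share of recounted reads was 0.566%, 2.17%, 1.80% and 0.727% in that order of libraries. miR-221-3p made up 69.6% of the members' recounted reads in HSC and 65.8% in imDC, with 74.7% in maDC and 79.4% in DCreg. For every member and library the deposited score exceeded the recounted reads, by a factor between 1.22 (miR-221-5p in DCreg) and 1.47 (miR-221-3p in HSC).

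**Figure D1:**
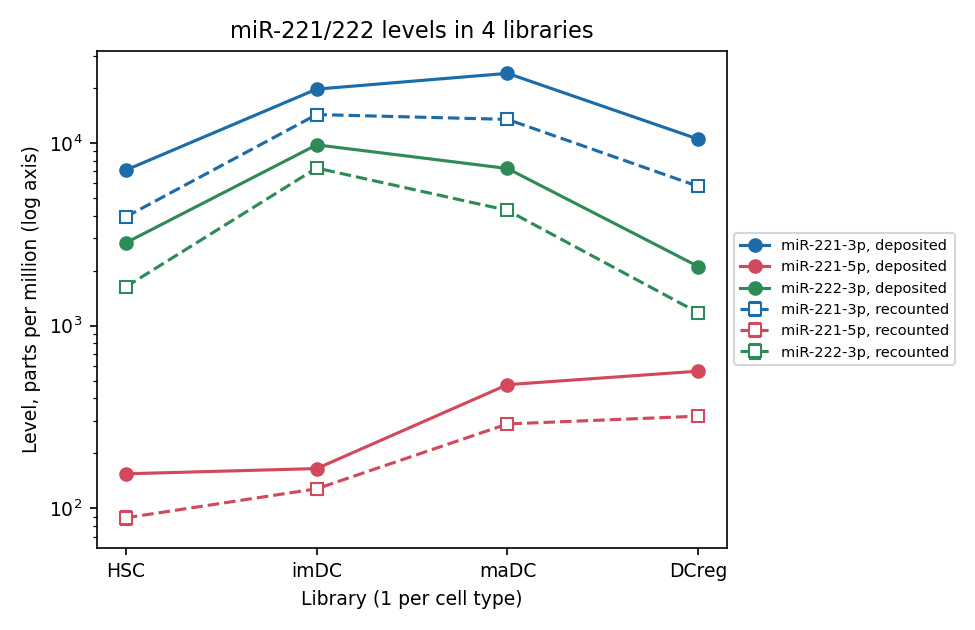
Level of the 3 members (ppm, log axis) in the 4 libraries, as deposited values (filled points) and as recounted reads (open squares, bars are exact 95% Poisson intervals of counting error). Both 3p arms are highest in imDC or maDC, while miR-221-5p is highest in DCreg, at 564 ppm by the deposited values.

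The 4 ratios that follow use the deposited levels with a pseudocount of 0.5 in log2 ratios. A member was called when it differed at least 2-fold and reached 100 ppm in either library, and the share of all tested miRNAs called by the same rule is given as background. As these are bulk libraries, fewer cells of a type and less of an RNA per cell cannot be told apart. Neighbouring comparisons share a library, so their ratios are not independent of each other.

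Immature dendritic cells, cultured from bone marrow, were compared with HSC, which were sorted out of bone marrow, so the libraries differ in both culture and sorting. Both 3p arms, 2 of the 3 members, were called higher in imDC, where 26.2% of the 187 tested miRNAs were called higher and 28.3% lower. miR-222-3p was 3.44-fold higher (9752 ppm in imDC and 2839 in HSC), and 4.47-fold in recounted reads (4.36 to 4.57). miR-221-3p was 2.77-fold higher (19677 ppm in imDC and 7093 in HSC), and 3.63-fold in recounted reads (3.57 to 3.69). miR-221-5p was at 165 ppm in imDC, against 155 in HSC, a log2 ratio of 0.09, and its recounted ratio was 1.44 (1.28 to 1.63). The log2 ratios of 1.78 for miR-222-3p and 1.47 for miR-221-3p lay above those of 87.2% and 81.8% of the tested miRNAs, whose median was -0.12. The erythroid and lymphoid markers given above differ between the same libraries, as do the 4 stromal ones (miR-143-3p, miR-145-5p, miR-199a-3p and miR-214-3p), which summed to 61.1 ppm in imDC and 1076 in HSC. Their part in these ratios was not tested.

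Mature dendritic cells were compared with imDC, which differ in LPS, days of culture and bead selection. In maDC the passenger arm alone of the 3 members was called, as higher, where 9.38% of the 160 tested miRNAs were called higher and 45% lower. miR-221-5p was 2.88-fold higher (476 ppm in maDC and 165 in imDC), with a recounted ratio of 2.26 (2.07 to 2.48). Its log2 ratio of 1.52 lay above 97.5% of the tested miRNAs. miR-221-3p was at 24002 ppm in maDC, against 19677 in imDC, a log2 ratio of 0.29 that turned to -0.09 in recounted reads. miR-222-3p was at 7240 ppm in maDC, against 9752 in imDC, a log2 ratio of -0.43 that came to 0.09 under TMM scaling (trimmed mean of M-values) and 0.27 under median-of-ratios scaling. The median of tested miRNAs was -0.88, so both 3p arms stood above the middle of this comparison. The 4 stromal markers summed to 177 ppm in maDC and 61.1 in imDC, and miR-199a-3p among them was called higher, with a log2 ratio of 1.36. Their part in these ratios was not tested.

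Regulatory dendritic cells were compared with maDC, the cell type they were made from, and differ from it in 7 days or more of stromal co-culture. The libraries were not treated as a pair from 1 culture. Both 3p arms were called lower in DCreg, where 28.3% of the 138 tested miRNAs were called lower and 20.3% higher. miR-222-3p was 3.44-fold lower (2106 ppm in DCreg and 7240 in maDC), and 3.63-fold in recounted reads (3.52 to 3.75). miR-221-3p was 2.29-fold lower (10475 ppm in DCreg and 24002 in maDC), and 2.33-fold in recounted reads (2.29 to 2.36). miR-221-5p was at 564 ppm in DCreg, against 476 in maDC, a log2 ratio of 0.25 that came to -0.17 under TMM scaling and -0.05 with all reads as the total. The median of tested miRNAs was -0.34. The stromal markers summed to 254 ppm in DCreg and 177 in maDC, with members in both directions. miR-143-3p was at 155 ppm in DCreg, against 40.9 in maDC, a log2 ratio of 1.92 that was called higher, and miR-145-5p was at 9.90 ppm in DCreg, against 2.68 in maDC. miR-199a-3p was at 79.6 ppm in DCreg, against 120 in maDC, and miR-214-3p at 9.54 ppm in DCreg, against 13.6 in maDC. Their part in these ratios was not tested. The endothelial miR-126 arms were at or under the floor in DCreg, as given above.

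DCreg were also compared with HSC, from which they differ in culture, LPS, stromal co-culture and the way the cells were selected. miR-221-5p alone was called higher, where 19.4% of the 175 tested miRNAs were called higher and 56% lower. It was 3.64-fold higher (564 ppm in DCreg and 155 in HSC), and 3.60-fold in recounted reads (3.23 to 4.01). miR-221-3p was at 10475 ppm in DCreg, against 7093 in HSC, a log2 ratio of 0.56, which reached 1.19 and so the 2-fold rule with median-of-ratios scaling. miR-222-3p was at 2106 ppm in DCreg, against 2839 in HSC, a log2 ratio of -0.43 that turned to 0.20 with that scaling. The median of tested miRNAs was -1.43, below all 3 members. The 2 mature arms that share a seed thus stood on opposite sides of the HSC level when scaled by total. The erythroid, lymphoid, endothelial and stromal sums of HSC and DCreg given above differ as well, most of all the erythroid one, and their part here was not tested.

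**Figure D2:**
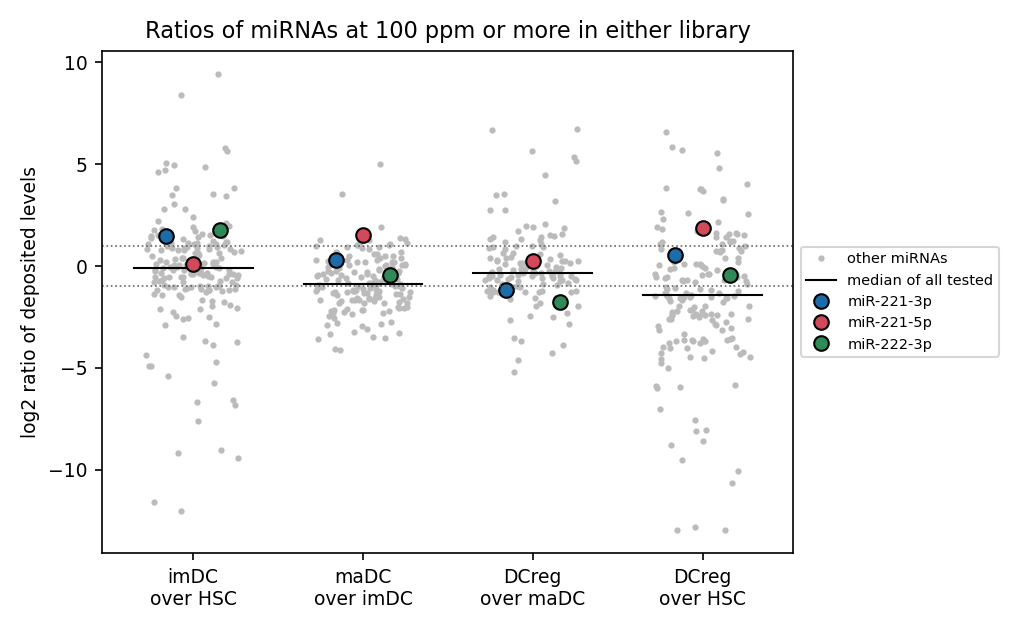
Log2 ratio of deposited levels for the 3 members (coloured points) and all other tested miRNAs (grey points) in 4 comparisons, with the median of all tested as a black bar and dotted lines at 2-fold. The 3p arms lie above the upper line for imDC over HSC and below the lower line for DCreg over maDC, while miR-221-5p lies above the upper line for maDC over imDC and for DCreg over HSC.

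The use of the arms of Mir221 was read from recounted reads of the same hairpin, a ratio that does not depend on how libraries are scaled. The 5p share of miR-221 reads was lowest in imDC and highest in DCreg. Of the reads of both arms, miR-221-5p held 2.21% in HSC (2.01 to 2.42) and 0.889% in imDC (0.823 to 0.958), then 2.11% in maDC (2.01 to 2.22) and 5.25% in DCreg (4.97 to 5.54). These rest on 462, 675, 1602 and 1258 reads of miR-221-5p and on 20460, 75253, 74237 and 22725 reads of miR-221-3p, in that order of libraries. HSC and maDC could not be told apart by their intervals, and imDC and DCreg stood clear of them on opposite sides. With reads identical to the annotated sequences alone, few of which are of miR-221-5p, the ratio of 5p to 3p reads was highest in maDC (0.00222) and lowest in imDC (0.000343).

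The ratio of 5p to 3p reads was 2.52-fold lower in imDC than in HSC (2.23 to 2.84, an interval on the log scale, as for the ratios of ratios that follow). In maDC it was 2.41-fold higher than in imDC (2.20 to 2.63). In DCreg it was 2.57-fold higher than in maDC (2.38 to 2.77) and 2.45-fold higher than in HSC (2.20 to 2.73). Each of these passed 2-fold. Among other miRNAs with at least 50 reads of each arm in both libraries, a shift of 2-fold in either direction was seen in 25.6% of 43 for imDC over HSC, 37.8% of 37 for maDC over imDC, 28% of 25 for DCreg over maDC and 38.5% of 26 for DCreg over HSC. Shifts of that size were therefore common among these libraries. For DCreg over maDC the log2 shift of 1.36 was exceeded upward by 1 of the other 25 miRNAs. For imDC over HSC the shift of -1.33 lay below all but 2 of the other 43. For maDC over imDC 6 of the other 37 had a larger upward shift than the 1.27 of miR-221. For DCreg over HSC 4 of the other 26 had a larger one than its 1.29. These ranks count the direction of miR-221 alone, and in each comparison at least 1 other miRNA shifted further the opposite way. For DCreg over maDC these were miR-27b (-2.94), miR-223 (-1.99) and miR-342 (-1.46). The median shift of the others was between -0.07 (DCreg over maDC) and 0.06 (DCreg over HSC).

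**Figure D3:**
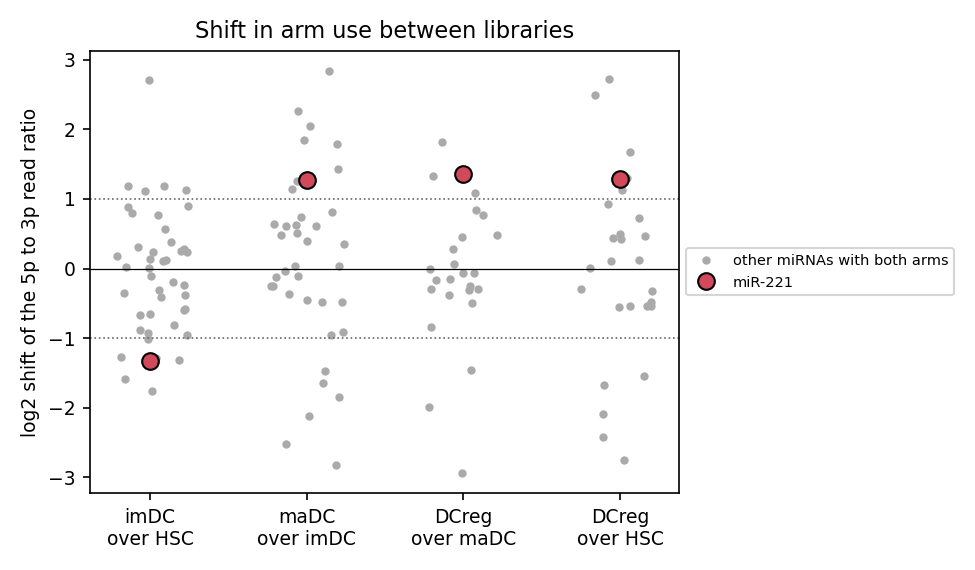
Log2 shift of the 5p to 3p read ratio between libraries for miR-221 (red) and for other miRNAs with both arms at 50 reads or more (grey), with dotted lines at 2-fold. miR-221 lies past 2-fold in all 4 comparisons, downward for imDC over HSC and upward in the other 3.

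The other hairpin gave an even smaller share of 5p reads. miR-222-5p, the passenger arm of Mir222 and not a member here, had 12 recounted reads in HSC and 95 in imDC, with 98 in maDC and 36 in DCreg. It held 0.141% of the reads of both arms in HSC (0.0731 to 0.247) and 0.247% in imDC (0.200 to 0.302), then 0.413% in maDC (0.336 to 0.504) and 0.773% in DCreg (0.542 to 1.07). DCreg thus had the highest 5p share at both hairpins, whereas imDC had the lowest at Mir221 and HSC at Mir222, where the HSC and imDC intervals overlap. Reads from elsewhere in the hairpins, outside both arms, numbered 9 in HSC and 87 in imDC, then 43 in maDC and 25 in DCreg at Mir221. At Mir222 there were 5, 43, 8 and 1 in the same order, so nearly all reads of both hairpins came from the arms.

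The balance between the 3p arms also differed between libraries. For each read of miR-221-3p there were 0.414 reads of miR-222-3p in HSC (0.404 to 0.425) and 0.510 in imDC (0.504 to 0.516), with 0.318 in maDC (0.313 to 0.323) and 0.203 in DCreg (0.197 to 0.210). No interval overlapped another, and miR-221-3p was the more abundant of the pair in every library. The ratio was 1.23-fold higher in imDC than in HSC (1.20 to 1.27). It was 1.60-fold lower in maDC than in imDC (1.57 to 1.63), 1.56-fold lower in DCreg than in maDC (1.51 to 1.62) and 2.04-fold lower in DCreg than in HSC (1.96 to 2.12). Deposited values gave the same order of libraries, from 0.496 in imDC to 0.201 in DCreg. The order turned when only reads of 1 exact form were counted. With reads identical to the RefSeq sequences maDC was highest (0.696) and DCreg lowest (0.293), and with reads identical to the series table's sequences DCreg was highest (0.0925) and imDC lowest (0.0644).

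**Figure D4:**
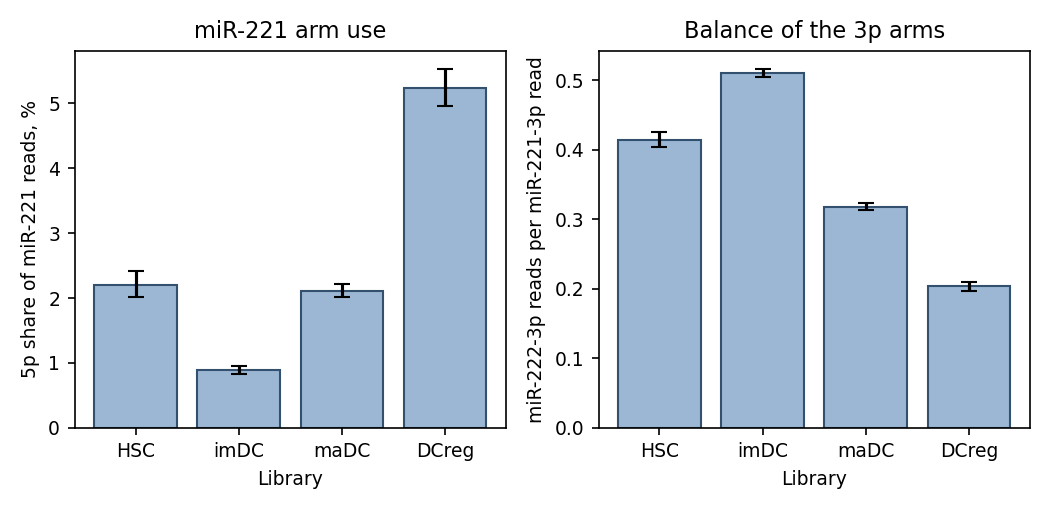
Share of miR-221 reads from the 5p arm (left, %) and miR-222-3p reads per miR-221-3p read (right) in the 4 libraries, from recounted reads with exact 95% intervals. The 5p share is highest in DCreg (5.25%) and the 3p balance is highest in imDC (0.510) and lowest in DCreg (0.203).

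The reads of each arm were then matched to the RefSeq hairpins to see which forms were made. The 5' end, which sets the seed, hardly varied for the 3p arms: 99.5% of miR-221-3p reads in HSC and 99.7% in imDC, then 99.8% in maDC and 99.6% in DCreg began at the annotated base, and for miR-222-3p these were 99.3%, 99.4%, 99.8% and 99.3%. For miR-221-5p a share of reads began 1 base earlier, which moves the seed by 1 base. That share was 4.55% in HSC (2.84 to 6.86) and 8.17% in imDC (6.22 to 10.5), with 6.99% in maDC (5.79 to 8.35) and 4.71% in DCreg (3.60 to 6.03). The commonest such read is shown with its seed in capitals, to be set beside the annotated miR-221-5p above.
miR-221-5p, 1 base earlier: aACCUGGCauacaauguagauuu

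The 3' ends varied much more. For miR-222-3p the forms below carry the difference, with the last base in capitals.
miR-222-3p, 22 nt: agcuacaucuggcuacuggguC
miR-222-3p, 23 nt: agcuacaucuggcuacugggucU
miR-222-3p, 24 nt: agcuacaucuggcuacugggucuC
The 23 nt form, which is the RefSeq sequence, was the commonest in every library, at 43.0% of miR-222-3p reads in HSC and 44.8% in imDC, then 44.9% in maDC and 34.6% in DCreg. The 22 nt form held 25.0% in HSC (24.1 to 25.9) and 23.3% in imDC (22.8 to 23.7), with 4.49% in maDC (4.23 to 4.77) and 6.04% in DCreg (5.37 to 6.76). The 24 nt form held 4.97% in HSC and 7.93% in imDC, then 13.3% in maDC and 10.4% in DCreg. HSC and imDC had 0.581 and 0.519 reads of the 22 nt form for each of the 23 nt form, against 0.100 in maDC and 0.174 in DCreg. The series table lists miR-222-3p with 21 nt, a form that held 4.44% (maDC) to 10.9% (DCreg) of its reads.

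miR-221-3p was split between a 22 nt and a 23 nt form, of which the 23 nt form is the annotated one.
miR-221-3p, 22 nt: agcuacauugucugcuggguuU
miR-221-3p, 23 nt: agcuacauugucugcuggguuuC
The 22 nt form held 36.0% of miR-221-3p reads in HSC and 34.5% in imDC, with 45.9% in maDC and 40.8% in DCreg. The 23 nt form held 31.2% in HSC and 38.8% in imDC, then 20.7% in maDC and 24.1% in DCreg. The annotated form was thus the commonest in imDC alone, with 1.12 reads for each of the 22 nt form (1.10 to 1.14), against 0.867 in HSC, 0.450 in maDC and 0.591 in DCreg.

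miR-221-5p is annotated with 26 nt, but that form held at most 2.12% of its reads (34 reads in maDC). Most reads ended 2 to 4 bases sooner, in the forms below and in a 23 nt form between them.
miR-221-5p, 22 nt: accuggcauacaauguagauuU
miR-221-5p, 24 nt: accuggcauacaauguagauuucU
The 22 nt form held 45.5% of miR-221-5p reads in HSC (40.8 to 50.1) and 19.6% in imDC (16.7 to 22.8), with 44.0% in maDC (41.6 to 46.5) and 56.3% in DCreg (53.5 to 59.0). The 24 nt form held 21.9% in HSC and 36.1% in imDC, then 15.7% in maDC and 7.02% in DCreg. There were 1.84 reads of the 24 nt form for each of the 22 nt form in imDC (1.48 to 2.29), against 0.481 in HSC, 0.356 in maDC and 0.125 in DCreg, so imDC alone had more of the longer form.

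**Figure D5:**
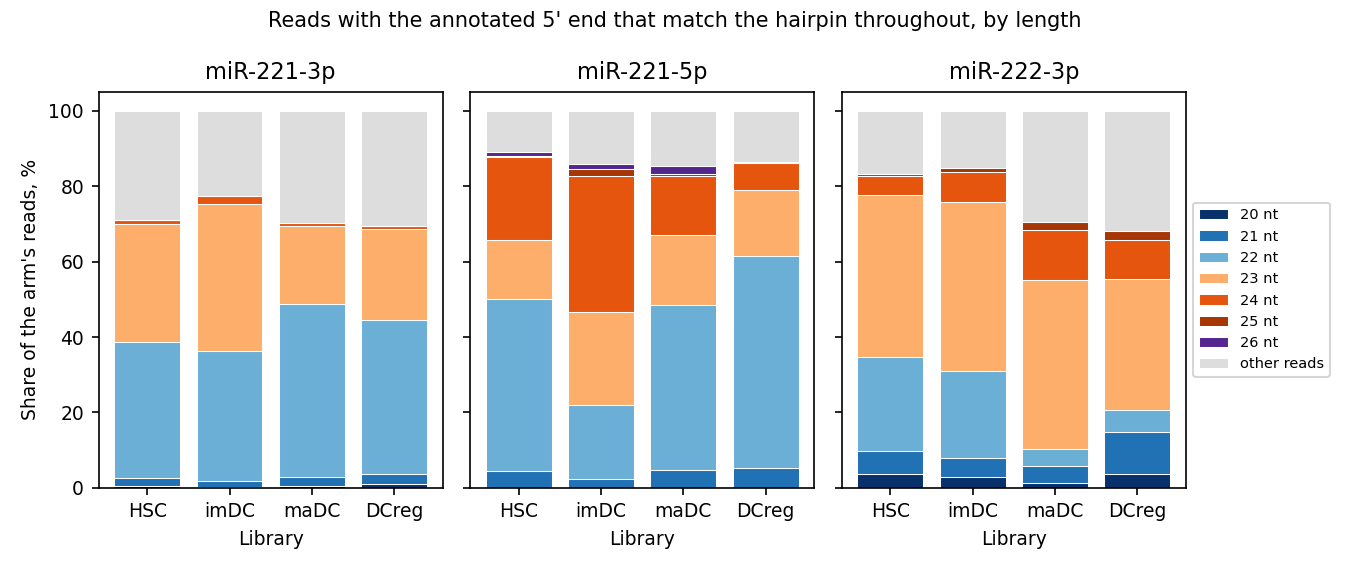
Share of each member's reads (%) that begin at the annotated base and match the hairpin throughout, by length, with all other reads in grey. The 22 nt share of miR-222-3p is 25.0% and 23.3% in HSC and imDC and 4.49% and 6.04% in maDC and DCreg, and miR-221-5p is longest in imDC, where the 24 nt form holds 36.1%.

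Ends in C were less common in maDC for many miRNAs, not for this cluster alone. In maDC the ratio of reads ending in C to other reads was lower than in imDC by 1.28 on the log2 scale for miR-221-3p and by 1.04 for miR-222-3p, and by 0.63 for miR-221-5p. Among 92 other miRNAs with enough reads of both kinds it was at least 2-fold lower in 29.3%, and their median log2 shift was -0.52, with 73 of the 92 under 0. The 24 nt form of miR-222-3p, which also ends in C, went the other way and held a larger share in maDC (13.3%) than in imDC (7.93%). In DCreg over maDC the ratio was at least 2-fold higher in 25.7% of 70 other miRNAs, with a median log2 shift of 0.50, while that of miR-222-3p was -0.10, of miR-221-5p -0.09 and of miR-221-3p 0.27. The part of library preparation in these ends was not tested, and a difference between cell types and one between library preparations cannot be told apart with 1 library each.

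Reads with 3' bases that the hairpin does not hold, which terminal transferases can add, were also counted. The commonest forms of this kind carried 1 added base, shown in capitals.
miR-222-3p with U: agcuacaucuggcuacugggucuU
miR-221-3p with U: agcuacauugucugcuggguuuU
miR-221-3p with A: agcuacauugucugcuggguuuA
The form of miR-222-3p with U held 1.43% of its reads in HSC (1.18 to 1.70) and 1.35% in imDC (1.24 to 1.47), with 7.25% in maDC (6.92 to 7.59) and 4.89% in DCreg (4.29 to 5.55). The forms of miR-221-3p with U and A held between 4.25% (U, imDC) and 9.22% (U, DCreg) of its reads. For miR-222-3p the libraries thus fell into a low pair, HSC and imDC, and a high pair, maDC and DCreg. Over all added bases, such reads made up 12.3% of miR-222-3p reads in HSC and 11.1% in imDC, with 28.3% in maDC and 28.6% in DCreg. For miR-221-3p they made up 27.0% in HSC and 20.9% in imDC, then 28.9% in maDC and 28.9% in DCreg, and for miR-221-5p between 5.11% (DCreg) and 6.71% (HSC). The median over 90 other miRNAs with at least 100 reads in each library was 16.1% in HSC and 13.7% in imDC, with 18.5% in maDC and 17.3% in DCreg. The difference between maDC and imDC was 17.1 percentage points for miR-222-3p, and 4 of the 90 other miRNAs had a larger one. For miR-221-3p it was 8.01 points, with 27 of the others above it, beside a median of 4.16 points.

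Of the miRNAs that share the 3p seed, miR-1928 was listed in the series table at 53.7 ppm in HSC and 99.2 in imDC, then 65.0 in maDC and 25.3 in DCreg. No deposited read matched it over at least 16 of its 17 bases, and the 3 reads that a count of 0 allows come to between 0.543 ppm (maDC) and 0.763 ppm (DCreg) of recounted reads. By reads, the seed was therefore carried by the 2 members among the miRNAs known to have it.

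The miRNAs with the most similar level pattern were ranked by the root mean square difference of centred log2 levels over the 4 libraries, among 198 miRNAs that reached 100 ppm. Nearest to miR-221-3p were miR-5114 (0.23), miR-28-3p (0.24), miR-505-5p (0.29), miR-29c-3p (0.30) and miR-1981-5p (0.31), and miR-222-3p was at rank 13 (0.49). By deposited values miR-505-5p was higher in DCreg (74.5 ppm) than in HSC (52.8), as miR-221-3p was. By recounted reads it was lower in DCreg (6.87 ppm) than in HSC (18.3), unlike miR-221-3p. Nearest to miR-222-3p were miR-330-3p (0.24), miR-342-5p (0.36), miR-28-3p (0.46), miR-345-3p (0.48) and miR-221-3p (0.49). By deposited values miR-330-3p had 89.0 ppm in HSC and 247 in imDC, with 287 in maDC and 58.3 in DCreg. It thus had the order of miR-222-3p except for imDC and maDC. In recounted reads it had the whole order of miR-222-3p, with 158 ppm in imDC, 146 in maDC, 44.6 in HSC and 32.0 in DCreg. Nearest to miR-221-5p were miR-5103 (0.14), miR-151-3p (0.47), miR-140-3p (0.51), let-7b-5p (0.57) and miR-5099 (0.58), with its own other arm at rank 32 (0.95). miR-5103 was listed at up to 1099 ppm (DCreg), yet had at most 2.47 ppm of recounted reads (imDC).

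As the cluster is known to respond to NF-kB, it was set beside 11 other miRNAs tied to Toll-like receptor and NF-kB signalling, of which miR-155-3p and miR-187-3p stayed under 100 ppm in every library. In imDC over HSC 8 of the 9 tested were called higher and none lower, where 26.2% of all tested miRNAs were called higher. Of these 9, miR-146a-5p and miR-146b-5p alone reached 100 ppm in HSC, and the others were tested through their imDC level, so the count largely follows from the filter. miR-146b-5p was at 89225 ppm in imDC, against 6182 in HSC, while miR-146a-5p, a brake on Toll-like receptor signalling, was at 1105 ppm in imDC, against 1561 in HSC. miR-155-5p, a regulator of dendritic cell activation, was at 2609 ppm in imDC, against 47.6 in HSC.

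In maDC over imDC all of the 9 tested reached 100 ppm in both libraries. None was called higher and 2 were called lower, where 9.38% of all tested miRNAs were called higher and 45% lower. Those called lower were miR-146a-5p, at 309 ppm in maDC and 1105 in imDC, and miR-9-5p, at 156 ppm in maDC and 739 in imDC.

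In DCreg over maDC 7 of the 9 were called lower and 1 higher, where 28.3% of all tested miRNAs were called lower and 20.3% higher. The 3 that reached 100 ppm in DCreg were miR-146a-5p, miR-146b-5p and miR-155-5p, and the others were tested through their maDC level, so this count too largely follows from the filter. miR-155-5p was at 141 ppm in DCreg, against 1651 in maDC, and miR-146b-5p at 36546 ppm in DCreg, against 67585 in maDC. By recounted reads miR-146b-5p was at 11084 ppm in DCreg, against 14799 in maDC, so both levels were lower and lay closer together. Its recounted levels in imDC and HSC were 28909 and 1701 ppm. miR-146a-5p was the member called higher, at 1115 ppm in DCreg and 309 in maDC. miR-132-3p, which is induced through CREB, was at 67.9 ppm in DCreg, against 374 in maDC.

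In DCreg over HSC 3 members were tested and 2 were called higher, where 19.4% of all tested miRNAs were called higher and 56% lower. These were miR-146b-5p, at 36546 ppm in DCreg and 6182 in HSC, and miR-155-5p, at 141 ppm in DCreg and 47.6 in HSC, which passed the filter through DCreg alone. miR-146a-5p was at 1115 ppm in DCreg, against 1561 in HSC. By deposited levels, each listed miRNA other than miR-146a-5p was higher in both imDC and maDC than in HSC and DCreg. The share of all miRNAs with this pattern was not counted, and it was not particular to the list. Outside the list, miR-330-3p had it, at 247 ppm in imDC and 287 in maDC, against 89.0 in HSC and 58.3 in DCreg. So did miR-342-5p, at 129 ppm in imDC and 132 in maDC, against 74.1 in HSC and 43.7 in DCreg. Of the 11 listed, 2 reached 100 ppm in HSC and 3 in DCreg, so many of these levels were low there. miR-146a-5p did not share this pattern and was lowest in maDC, at 309 ppm.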

How the data were processed

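The series table gives 1 score per mature miRNA and hairpin, deposited by the authors as whole numbers called normalised counts, per the file headers. The normalisation and the aligner, not given in the sources used here, could change these values. Other RNA classes were removed and the rest was matched to miRBase release 19, per the labels. The deposited read lists give copy numbers, as counts of each unique sequence, from libraries amplified for 12 cycles. They hold 4904897 (DCreg) to 6572858 (maDC) reads of 16 to 39 nt. As the table holds scores, no count model was used on it.

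Scores were summed over hairpins and scaled to 1000000 per library. Reads were recounted by an exact match of at least 16 nt to the table's mature sequences, with a 5' end within 2 nt and at most 5 unmatched 3' bases, ties being divided equally. This placed 80.2% (DCreg) to 84.0% (maDC) of reads. The recount was also run on simulated reads made only of forms that its rule accepts. Their recovery was thus nearly fixed in advance and says little about real reads. Reads from PCR that carry no molecular identifiers are not independent, so intervals and floors cover counting error only. Intervals are Clopper-Pearson or exact Poisson, except those on ratios of ratios, which use the log scale, and the floor is 3 counts. Work was done in Python 3.11.15 with numpy 2.4.6 and scipy 1.17.1.

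The members and lists were chosen with earlier results of these data known. The text names the 3 members, miR-222-5p, miRNAs of the same seed, the 5 nearest patterns of each member, and listed miRNAs that reached 100 ppm. The listed miR-126 arms, miR-145-5p, miR-214-3p, miR-155-3p and miR-187-3p, which did not, are named as well, to give their lists in full. Alternatives were 4 scalings, recounted reads, a pseudocount of 1, no filter on low values and stricter read matches.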

Additional observations from a re-analysis of the deposited data

Results flagged for a closer look

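miR-222-5p, the passenger arm of Mir222, is outside the 3 members but had reads above the limit that a count of 0 allows in every library: 12 in HSC and 95 in imDC, with 98 in maDC and 36 in DCreg. No control library without the hairpin was analysed here.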

How the results depend on the processing

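Each of the 12 log2 ratios of a member was recomputed under 7 alternatives. The 6 called ratios kept their sign and stayed at 2-fold or more in all 42 of these values, and the other sign appeared in 6 values of ratios under 2-fold, named above. Dropping the filter leaves a ratio as it is, and a pseudocount of 1 hardly moves scores of this size. The values under those alternatives were thus fixed in advance or nearly so, and say nothing about how firm the ratios are. The scalings moved the median of tested miRNAs by up to 0.25 (all reads, imDC over HSC), 0.70 (median of ratios, maDC over imDC), -0.42 (TMM, DCreg over maDC) and 0.63 (median of ratios, DCreg over HSC). The number of members called higher in DCreg over HSC was 1 and became 2 with median-of-ratios scaling, and the other counts did not move. The miR-221 arm ratio (0.0226 in HSC and 0.00897 in imDC, with 0.0216 in maDC and 0.0554 in DCreg) became 0.000626, 0.000343, 0.00222 and 0.000730 in that order when reads had to be identical to the annotated sequence, since the 26 nt form of miR-221-5p is rare, and the order of maDC and DCreg then turned. The RefSeq sequence is the same for both arms and gave the same values. With the annotated 5' end it was 0.00824 in imDC and 0.0200 in maDC, and by deposited values 0.0198 in maDC. The ratio of miR-222-3p to miR-221-3p by deposited values was 0.400 in HSC, 0.496 in imDC and 0.302 in maDC. With reads identical to the table's sequence it was 0.0790 in HSC and 0.0644 in imDC, then 0.0687 in maDC and 0.0925 in DCreg, since the 21 nt form listed there is rare. With reads identical to the RefSeq sequence, chosen after seeing the data, it was 0.572 in HSC and 0.591 in imDC, with 0.696 in maDC and 0.293 in DCreg, so maDC then led. No paired analysis was possible because each cell type has 1 library and no test was run. Leaving out a replicate was not possible for the same reason.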
